A study of Mus musculus with 27 samples.

Results

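A set of 7 genes that carry signals of the circadian clock to other genes was followed in mouse hearts under pressure overload: Dbp, Tef, Hlf, Nfil3, Ciart, Bhlhe40 and Bhlhe41. They were matched by symbol in the array's probe annotation, which found all 7 among the 19937 genes tested. Among the 7 genes only Ciart had more than 1 probe set, and its brighter one was used. The series holds 27 expression arrays of heart tissue from C57Bl/6J male littermates aged 10 to 12 weeks, in 9 groups of 3. At days 3, 11 and 28 after surgery there was a group with sham surgery and dmso vehicle, a group with trans aortic constriction (TAC) and dmso vehicle, and a group with TAC and JQ1, an inhibitor of BET bromodomain proteins. TAC narrows the aortic arch with a suture, so that the heart pumps against raised pressure, and injections began 1.5 days after surgery. No group had sham surgery with JQ1, so a JQ1 difference is known here only in constricted hearts. Mice were kept under a standard light and dark cycle, but the sources used here do not give the time of day at which hearts were taken. Differences of clock genes by TAC, JQ1 or day thus cannot be told apart from differences in the time of collection between groups.

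In the clock of mammalian cells, the activators CLOCK and BMAL1 (gene Arntl) drive Per, Cry, Nr1d1 and Nr1d2 from DNA elements called E-boxes, and the products of these genes repress the activators in turn. Dbp, Tef and Hlf encode the PAR bZIP activators, which pass the rhythm on by binding D-boxes in target genes, and Nfil3 (E4bp4) encodes a bZIP repressor that binds the same elements. Ciart (Chrono), Bhlhe40 (Dec1) and Bhlhe41 (Dec2) encode repressors of CLOCK and BMAL1 that are themselves under E-box control. In the heart the clock is known for daily rhythms of fuel use and of ion channel genes.

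The promoters show which of these elements stand close to the genes. The 250 bases before each annotated start were read from RefSeq (build GRCm38.p6), which gave 7 windows for 6 of the 7 genes, with Bhlhe40 not among them. The E-box CACGTG, which reads the same on both strands, occurred in 6.02% of all 32851 such windows and in 3 or more copies in 0.0609% (20 windows). Ciart had 3 copies, beginning 116, 58 and 44 bases before the start, Tef had 1 in each of its windows (127 and 138 bases before) and Bhlhe41 had 1 (153 bases before). The windows of Dbp, Hlf and Nfil3 held no CACGTG, which says only that these letters are not in these bases. The D-box TTATGTAA, searched on both strands, was in 0.819% of windows and in none of the 7. The Per3 window held it in 2 copies, 205 and 158 bases before the start, and 0.0183% of windows (6 windows) held 2 or more copies. The variant TTACGTAA (0.113% of windows) and CACGTT (3.85%, either strand) were in none of the 7. Below, capitals mark CACGTG in Ciart (chr3:95882229-95882478, minus strand), Tef (chr15:81802423-81802672 and chr15:81811164-81811413, plus strand) and Bhlhe41 (chr6:145865421-145865670, minus strand), and TTATGTAA in Per3 (chr4:151044666-151044915, minus strand). These windows were picked because they hold an element and their gene was called lower. That was after TAC at day 11 for Ciart, Tef and Per3, and with JQ1 at day 28 for Bhlhe41. Dbp, Hlf, Nr1d2 and Cry2 were also lower after TAC at day 11, and Nr1d1 with JQ1 at day 28, but their windows held neither CACGTG nor TTATGTAA. The windows of Cry2 and Nr1d1 each held 1 CACGTT. Per2, lower after TAC at day 11, and Bhlhe40, lower with JQ1 at day 28, had no window. Windows of Per1 and Cry1 held CACGTG, and neither gene was called lower in these comparisons. Hlf (chr11:90390918-90391167, minus strand), which had the smallest p-value of the 7 genes, is shown as a window without either element. A match is a description of letters and not a measured binding site.
Ciart: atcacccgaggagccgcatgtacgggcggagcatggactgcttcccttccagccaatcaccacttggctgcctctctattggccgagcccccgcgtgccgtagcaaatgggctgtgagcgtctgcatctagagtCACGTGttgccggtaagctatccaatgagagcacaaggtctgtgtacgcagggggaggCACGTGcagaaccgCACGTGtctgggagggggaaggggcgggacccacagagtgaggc
Tef, first start: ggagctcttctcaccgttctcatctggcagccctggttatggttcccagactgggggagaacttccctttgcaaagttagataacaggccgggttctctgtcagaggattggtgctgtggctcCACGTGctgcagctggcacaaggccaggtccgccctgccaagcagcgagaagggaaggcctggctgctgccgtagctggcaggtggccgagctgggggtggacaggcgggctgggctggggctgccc
Tef, second start: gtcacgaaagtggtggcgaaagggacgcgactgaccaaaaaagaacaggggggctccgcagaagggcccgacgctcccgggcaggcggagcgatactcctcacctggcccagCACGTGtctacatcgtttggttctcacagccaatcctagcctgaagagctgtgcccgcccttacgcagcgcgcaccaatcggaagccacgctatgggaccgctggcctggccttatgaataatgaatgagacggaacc
Bhlhe41: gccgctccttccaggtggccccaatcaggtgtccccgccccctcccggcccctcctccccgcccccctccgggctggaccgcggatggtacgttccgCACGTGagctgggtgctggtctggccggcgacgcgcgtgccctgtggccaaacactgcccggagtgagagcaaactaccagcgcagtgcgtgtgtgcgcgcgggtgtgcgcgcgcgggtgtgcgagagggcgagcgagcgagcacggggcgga
Per3: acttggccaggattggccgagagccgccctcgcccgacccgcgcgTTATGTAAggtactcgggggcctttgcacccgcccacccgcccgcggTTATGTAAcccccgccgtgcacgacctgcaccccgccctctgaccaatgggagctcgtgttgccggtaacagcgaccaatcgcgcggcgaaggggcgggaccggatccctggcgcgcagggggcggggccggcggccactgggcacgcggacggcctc
Hlf: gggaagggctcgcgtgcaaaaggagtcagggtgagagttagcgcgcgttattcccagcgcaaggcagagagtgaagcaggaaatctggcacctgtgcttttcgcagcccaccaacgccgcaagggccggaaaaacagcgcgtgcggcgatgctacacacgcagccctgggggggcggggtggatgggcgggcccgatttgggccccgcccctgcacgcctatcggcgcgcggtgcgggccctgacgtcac

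Levels below are the deposited log2 signals of a gene's probe set, and differences are differences of group means ± standard error from 1 limma fit to the 27 arrays (n = 3 arrays a group). The p-values are Benjamini-Hochberg adjusted over the 19937 genes of a comparison, and a gene is called at an adjusted p under 0.05. The labels do not say that arrays are separate animals beyond naming littermates, so p-values measure the spread between these samples. Array medians lay between 6.954 and 7.043. Of the 10 cardiomyocyte markers, such as Myh6 and Tnnt2, the lowest was Ryr2, at percentile 99.4 of the mean level over all genes. The heart label was thus borne out. The TAC JQ1 day 3 array of replicate 1 stood apart, with the lowest mean correlation with its group of the 27 arrays (r = 0.988), a Dbp level of 8.72 and an Arntl level of 8.23. Where this array much changes a call, direction or value of the 7 genes, comparisons with its group also give the value without it. The other comparisons were not refitted without it, though all 27 arrays share 1 estimate of a gene's spread. For Dbp the residual SD was 0.278 with this array and 0.121 without it. The array thus widens the standard errors of Dbp in all comparisons.

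Against sham hearts, the PAR bZIP genes and Ciart fell after TAC. Hlf and Tef fell on all 3 days, Dbp and Ciart fell at day 11, and none of the 7 genes rose on any day by limma. At day 3, 2 of 7 genes were called, both lower, where 7.55% of all genes were called (4.22% higher and 3.33% lower). At day 11, 4 of 7 were called lower, against 15.5% of all genes (7.8% higher and 7.73% lower). At day 28 it was 2 of 7, both lower, against 15.1% (8.13% higher and 6.98% lower). The median difference of the 7 genes was −0.34 at day 3, −0.48 at day 11 and −0.11 at day 28, where the medians of all genes were −0.03, 0.01 and −0.05. TAC and sham arrays did not overlap for 4, 6 and 4 of the 7 genes on these days, which holds for 21.6%, 33.4% and 37.7% of all genes. The 7 genes were chosen with earlier results of these data known. Here and below, their counts beside those of all genes are thus a description.

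**Figure D1:**
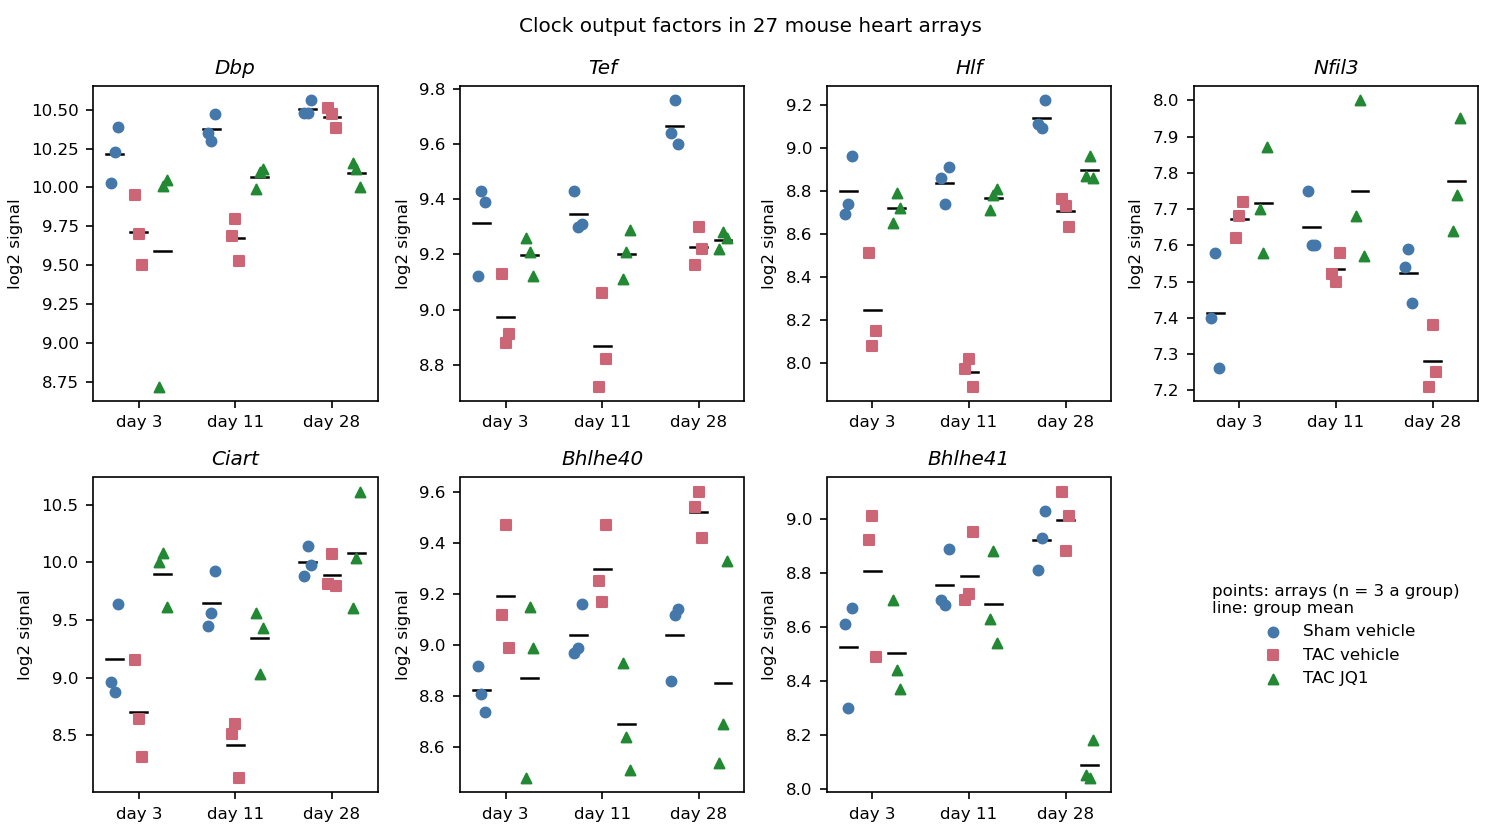
Log2 signal (vertical axis) of each clock output factor in the 27 arrays by day, with circles for sham vehicle, squares for TAC vehicle and triangles for TAC JQ1; the line is the mean of 3 arrays. At day 11 the TAC vehicle arrays of Hlf lie between 7.89 and 8.02, below all sham arrays (8.74 to 8.91), and at day 28 the TAC JQ1 arrays of Bhlhe41 lie between 8.04 and 8.18, below all other arrays of that gene.

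Hlf, the PAR bZIP member known as hepatic leukaemia factor, gave the smallest p-values at days 3 and 11. Its sham levels were 8.69, 8.74 and 8.96 at day 3, 8.86, 8.74 and 8.91 at day 11, and 9.11, 9.09 and 9.22 at day 28. In TAC vehicle hearts the Hlf levels were 8.51, 8.08 and 8.15, then 7.97, 8.02 and 7.89, then 8.76, 8.73 and 8.63. Every TAC array was below every sham array of its day. The log2 difference was −0.55 ± 0.09 at day 3 (limma adjusted p = 0.000511), −0.88 ± 0.09 at day 11 (adjusted p = 6.14e-07, rank 44 of all genes, 1.84-fold) and −0.43 ± 0.09 at day 28 (adjusted p = 0.00173). The day 3 call was lost when only the groups compared were fitted (adjusted p = 0.0741).

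Tef, thyrotroph embryonic factor, had sham levels of 9.12, 9.43 and 9.39 at day 3, 9.43, 9.30 and 9.31 at day 11, and 9.64, 9.76 and 9.6 at day 28. Its TAC vehicle levels were 9.13, 8.88 and 8.91, then 8.72, 9.06 and 8.82, then 9.16, 9.30 and 9.22. At day 3 TAC replicate 1 lay just above the lowest sham array, and on the later days the groups did not overlap. The log2 difference was −0.34 ± 0.09 (limma adjusted p = 0.0205), −0.48 ± 0.09 (adjusted p = 0.000687) and −0.44 ± 0.09 (adjusted p = 0.00151) at days 3, 11 and 28. The day 3 call of Tef was lost without sham replicate 2 or 3 or TAC replicate 2 or 3, with differences of −0.29 to −0.31 (adjusted p from 0.079 to 0.155). It was also lost when only the groups compared were fitted (adjusted p = 0.167).

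Dbp, the D site binding protein and a classical output of the clock, was called at day 11 alone. Its sham levels were 10.03, 10.23 and 10.39 at day 3, 10.35, 10.30 and 10.47 at day 11, and 10.48, 10.48 and 10.56 at day 28, and its TAC vehicle levels were 9.95, 9.70 and 9.50, then 9.69, 9.80 and 9.53, then 10.51, 10.47 and 10.38. All TAC arrays were below all sham arrays at days 3 and 11, while the groups overlapped at day 28. The log2 difference was −0.50 ± 0.21 at day 3 (limma adjusted p = 0.169), −0.70 ± 0.21 at day 11 (adjusted p = 0.022) and −0.05 ± 0.21 at day 28 (adjusted p = 0.885, 95% interval −0.48 to 0.37). The day 11 call was lost without sham replicate 1 or 3 or TAC replicate 1 or 3, with differences from −0.63 to −0.71 (adjusted p from 0.0559 to 0.0892). TAC JQ1 day 3 replicate 1, in none of the groups compared here, widens these standard errors. The residual SD of Dbp was 0.278 with that array and 0.121 without it. These comparisons were not refitted without it, so the missing call at day 3 does not show that Dbp was unchanged.

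Ciart, the repressor of CLOCK and BMAL1, had the largest single difference of this comparison. At day 11 its levels were 9.45, 9.56 and 9.92 in sham and 8.51, 8.60 and 8.13 in TAC vehicle hearts, with no overlap. The log2 difference there was −1.23 ± 0.24 (limma adjusted p = 0.000691, 2.34-fold). At day 3 sham levels of 8.96, 8.88 and 9.64 overlapped with TAC levels of 9.15, 8.64 and 8.31, and at day 28 sham levels of 9.88, 10.14 and 9.98 overlapped with TAC levels of 9.81, 10.07 and 9.79. The differences of −0.46 ± 0.24 (adjusted p = 0.31) and −0.11 ± 0.24 (adjusted p = 0.799) on those days were not called. A second probe set of Ciart, with a correlation of 0.96 with the first over the arrays, gave −0.29, −0.88 and −0.17 (± 0.23) on the 3 days.

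Nfil3 and the bHLH repressors were not called on any day of the TAC comparison. Nfil3 levels were 7.40, 7.58 and 7.26 in sham and 7.62, 7.68 and 7.72 in TAC vehicle hearts at day 3, 7.75, 7.6 and 7.6 against 7.52, 7.50 and 7.58 at day 11, and 7.54, 7.59 and 7.44 against 7.21, 7.38 and 7.25 at day 28. TAC arrays thus lay above sham arrays at day 3 and below them on the later days, with differences of 0.26 ± 0.10 (limma adjusted p = 0.15), −0.11 ± 0.10 (adjusted p = 0.595) and −0.25 ± 0.10 (adjusted p = 0.119). Bhlhe40 levels were 8.92, 8.81 and 8.74 in sham and 9.12, 9.47 and 8.99 in TAC vehicle hearts at day 3, 8.97, 8.99 and 9.16 against 9.25, 9.17 and 9.47 at day 11, and 8.86, 9.12 and 9.14 against 9.54, 9.6 and 9.42 at day 28. On each day all TAC arrays of Bhlhe40 were above all sham arrays, but the differences of 0.37, 0.26 and 0.48 (each ± 0.17) had adjusted p of 0.252, 0.413 and 0.0647. The day 28 difference of Bhlhe40 was called when the dimmest 33.3% of genes were left out (adjusted p = 0.0446) and when only the groups compared were fitted (adjusted p = 0.00921). Bhlhe41 had sham levels of 8.61, 8.30 and 8.67, then 8.70, 8.68 and 8.89, then 8.81, 8.93 and 9.03, and TAC levels of 8.92, 9.01 and 8.49, then 8.70, 8.72 and 8.95, then 9.10, 8.88 and 9.01, with overlap on every day. Its differences were 0.28 ± 0.13 (adjusted p = 0.227), 0.03 ± 0.13 (adjusted p = 0.938) and 0.07 ± 0.13 (adjusted p = 0.735). Without TAC replicate 3 the day 3 difference of Bhlhe41 was 0.44 and was called (adjusted p = 0.0353).

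Markers of other cells moved in the same comparisons. Of 9 fibroblast markers 3, 7 and 9 rose after TAC at days 3, 11 and 28, and of 9 macrophage markers 3, 9 and 9 rose, while of 10 cardiomyocyte markers 0, 1 and 2 fell. Of 7 smooth muscle and pericyte markers 3 rose at day 3 and 3 at day 11, and 1 fell at day 28. Among 7 endothelial markers 1 rose at day 11 and 1 fell at day 28. The summed linear signal of the fibroblast markers was 13705 to 15291 in sham and 17683 to 19246 in TAC vehicle arrays at day 3, 12086 to 12622.5 and 20805 to 22768 at day 11, and 12023 to 12996.5 and 19684 to 28601 at day 28. That of the macrophage markers was 6165 to 7712 and 8409 to 10801.5, then 5427 to 5758 and 8847 to 9898, then 4911 to 5461 and 10417 to 13079. Their part in the Tef, Hlf, Dbp and Ciart results was not tested. In heart tissue as a whole, fewer cells that express a gene and less RNA per cell cannot be told apart.

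JQ1 was compared with vehicle in constricted hearts on the same days. Hlf and Ciart rose at days 3 and 11, Tef rose at day 11, Bhlhe40 fell at days 11 and 28, Bhlhe41 fell at day 28 and Nfil3 rose at day 28. At day 3, 2 of 7 genes were called, both higher, where 11.9% of all genes were called (4.28% higher and 7.61% lower). At day 11 there were 4 of 7 called (3 higher and 1 lower), against 16% of all genes (7.52% higher and 8.43% lower). At day 28 there were 3 of 7 (1 higher and 2 lower), against 19.6% (7.16% higher and 12.4% lower). The arrays did not overlap for 2, 5 and 5 of the 7 genes, which holds for 23.1%, 36.3% and 35% of all genes. The median differences were 0.04, 0.34 and 0.03, where those of all genes were 0.02, −0.05 and 0.06. The TAC vehicle arrays enter this comparison and the one with sham, so the values of both are not independent. Without TAC JQ1 replicate 1 at day 3, Hlf (0.51, limma adjusted p = 0.00261) and Ciart (1.15, adjusted p = 0.0101) were still called higher at day 3.

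**Figure D2:**
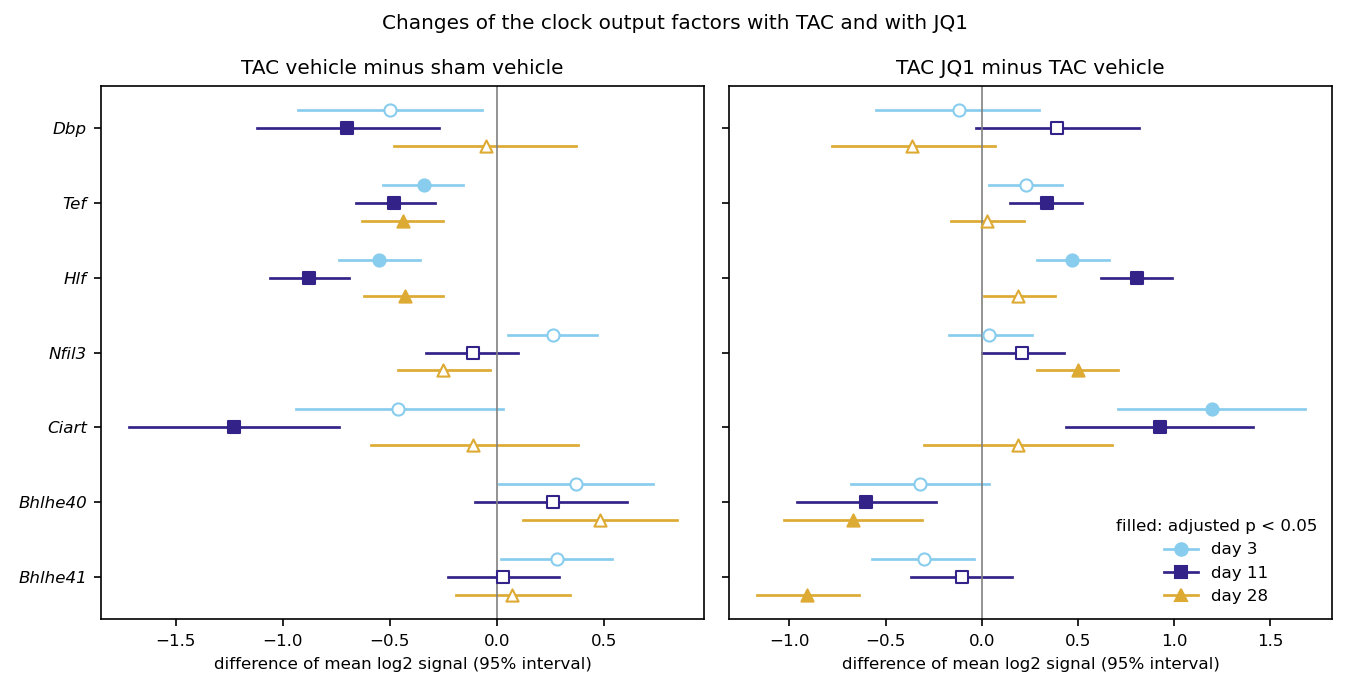
Differences of mean log2 signal (horizontal axis, with 95% intervals) of the 7 genes for TAC vehicle minus sham vehicle (left) and TAC JQ1 minus TAC vehicle (right), by day; filled symbols have a limma adjusted p under 0.05. Hlf at day 11 lies at −0.88 on the left and 0.81 on the right, and both panels use the same TAC vehicle arrays.

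Hlf levels in TAC JQ1 hearts were 8.65, 8.79 and 8.72 at day 3, 8.71, 8.78 and 8.81 at day 11, and 8.87, 8.96 and 8.86 at day 28. They lay above all TAC vehicle arrays on each day. The log2 difference from TAC vehicle was 0.47 ± 0.09 (limma adjusted p = 0.00113), 0.81 ± 0.09 (adjusted p = 3.56e-06, rank 36 of all genes) and 0.19 ± 0.09 (adjusted p = 0.135) at days 3, 11 and 28. The day 3 call was lost when only the groups compared were fitted (adjusted p = 0.0904).

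In TAC JQ1 hearts Tef levels were 9.26, 9.21 and 9.12, then 9.11, 9.21 and 9.29, then 9.22, 9.28 and 9.26. They overlapped with TAC vehicle arrays at days 3 and 28 and lay above them at day 11. The differences were 0.23 ± 0.09 (limma adjusted p = 0.114), 0.34 ± 0.09 (adjusted p = 0.0132) and 0.03 ± 0.09 (adjusted p = 0.842). For Tef at day 11 the call did not hold when TAC vehicle replicate 1 (0.26, adjusted p = 0.0917) or TAC JQ1 replicate 3 (0.29, adjusted p = 0.0616) was left out, nor when only the groups compared were fitted (adjusted p = 0.0508). At day 3 Tef was called when TAC vehicle replicate 1 was left out (0.31, adjusted p = 0.0481).

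For Dbp the TAC JQ1 levels were 8.72, 10.01 and 10.05 at day 3, 9.99, 10.10 and 10.12 at day 11, and 10.16, 10.12 and 10.00 at day 28. Arrays at day 11 lay above and at day 28 below all TAC vehicle arrays, with differences of 0.39 ± 0.21 (limma adjusted p = 0.218) and −0.36 ± 0.21 (adjusted p = 0.218). At day 3 the low value of replicate 1 set the direction: the difference was −0.12 ± 0.21 (adjusted p = 0.816) with it and 0.31 (adjusted p = 0.0884) without it. When only the groups compared were fitted, Dbp was called at day 11 (adjusted p = 0.017) and at day 28 (adjusted p = 0.029).

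Ciart levels in TAC JQ1 hearts were 10.00, 10.08 and 9.61 at day 3, 9.56, 9.03 and 9.43 at day 11, and 9.6, 10.04 and 10.61 at day 28. At days 3 and 11 they lay above all TAC vehicle arrays, by 1.2 ± 0.24 (limma adjusted p = 0.00144, 2.29-fold) and 0.93 ± 0.24 (adjusted p = 0.00854). At day 28 they overlapped, with a difference of 0.19 ± 0.24 (adjusted p = 0.575) that was −0.07 without replicate 3. The day 11 call of Ciart was lost without TAC JQ1 replicate 1 (0.82, adjusted p = 0.051). Its second probe set gave 0.94, 0.55 and 0.15 (± 0.23).

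Nfil3 levels in TAC JQ1 hearts were 7.70, 7.58 and 7.87, then 7.68, 8.0 and 7.57, then 7.64, 7.74 and 7.95. At day 28 they lay above all TAC vehicle arrays, and the difference of 0.50 ± 0.10 was called (limma adjusted p = 0.00122). The differences of 0.04 ± 0.10 at day 3 (adjusted p = 0.878) and 0.21 ± 0.10 at day 11 (adjusted p = 0.175) were not.

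Both bHLH repressors were lower with JQ1 at day 28. Bhlhe41 levels in TAC JQ1 hearts were 8.70, 8.44 and 8.37 at day 3, 8.63, 8.88 and 8.54 at day 11, and 8.05, 8.04 and 8.18 at day 28. The day 28 arrays were the lowest of all 27 for this gene. The difference was −0.91 ± 0.13 at day 28 (limma adjusted p = 2.09e-05, 1.87-fold), while −0.30 ± 0.13 at day 3 (adjusted p = 0.138) and −0.10 ± 0.13 at day 11 (adjusted p = 0.633) were not called. Without TAC vehicle replicate 3 the day 3 difference of Bhlhe41 was −0.46 and was called (adjusted p = 0.0198). Bhlhe40 levels in TAC JQ1 hearts were 8.48, 9.15 and 8.99, then 8.93, 8.64 and 8.51, then 8.54, 8.69 and 9.33. They overlapped with TAC vehicle arrays at day 3 and lay below them on the later days. The differences were −0.32 ± 0.17 (adjusted p = 0.29, and −0.12 without TAC JQ1 replicate 1), −0.60 ± 0.17 (adjusted p = 0.0195) and −0.67 ± 0.17 (adjusted p = 0.00813). The day 11 call of Bhlhe40 was lost without TAC vehicle replicate 3 or TAC JQ1 replicate 2 or 3 (−0.51 to −0.58, adjusted p from 0.0677 to 0.0818), and the day 28 call without TAC JQ1 replicate 1 (−0.51, adjusted p = 0.0621).

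In the same comparison 3, 4 and 5 of 9 fibroblast markers and 6, 7 and 6 of 9 macrophage markers fell at days 3, 11 and 28. Summed fibroblast signals in TAC JQ1 arrays were 15443 to 16758, 15291 to 17073 and 15724 to 19911, and summed macrophage signals were 7106 to 7448, 6382 to 7378 and 7569.5 to 10001. At day 28, 4 of 7 endothelial markers fell and the 2 red cell markers measured, Alas2 and Slc4a1, rose. Before that, 1 endothelial marker fell at day 3 and 1 at day 11, and 1 red cell marker rose at day 11. Of the 10 cardiomyocyte markers 0, 1 and 0 were called on the 3 days, the 1 being higher at day 11. Among 7 smooth muscle and pericyte markers 1 rose and 1 fell at day 11, and 3 fell at day 28. The part of these cells in the Nfil3, Bhlhe40 and Bhlhe41 results was not tested.

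Constricted hearts given JQ1 were also set against sham hearts of the same day. At day 3, 3 of 7 genes were called, against 17.6% of all genes (6.94% higher and 10.7% lower). At day 11 none was, against 10.5% (5.01% higher and 5.51% lower), and at day 28 there were 2, both lower, against 19.9% (7.36% higher and 12.6% lower). Dbp fell by 0.62 ± 0.21 at day 3 (limma adjusted p = 0.038), Nfil3 rose by 0.30 ± 0.10 (adjusted p = 0.0432) and Ciart rose by 0.74 ± 0.24 (adjusted p = 0.031), with overlapping arrays for each of the 3. Without TAC JQ1 replicate 1 none of these 3 calls remained, and the difference was −0.19 (adjusted p = 0.325) for Dbp, 0.31 (adjusted p = 0.0868) for Nfil3 and 0.69 (adjusted p = 0.104) for Ciart. Other single arrays also ended them: sham replicate 2 or 3 for Dbp, sham replicate 1 or 3 or TAC JQ1 replicate 3 for Nfil3, and sham replicate 1 or 2 or TAC JQ1 replicate 2 for Ciart. Nor did any of the 3 pass when only the groups compared were fitted, where the adjusted p of Dbp was 0.339. At day 11 limma called 0 of 7, and 0 of 7 had an unadjusted p under 0.05. The differences there ran from −0.35 for Bhlhe40 (95% interval −0.71 to 0.01) to 0.10 for Nfil3 (−0.11 to 0.31). Fitting only the groups compared called Dbp at day 11 (−0.30, adjusted p = 0.0324) and at day 28 (−0.41, adjusted p = 0.00919). At day 28 Tef fell by 0.41 ± 0.09 (adjusted p = 0.00178) and Bhlhe41 fell by 0.83 ± 0.13 (adjusted p = 4.36e-05), with no overlap for either. Hlf, at −0.24 ± 0.09 (adjusted p = 0.0652), was called at day 28 with arrays centred on their median (adjusted p = 0.0302) or without the dimmest 33.3% of genes (adjusted p = 0.0398). Arrays did not overlap for 0, 3 and 5 of the 7 genes on the 3 days, which holds for 26.6%, 32.6% and 33.3% of all genes. Of 11 core clock genes 6 (3 higher and 3 lower), 3 and 5 (all lower) were called here. At day 11 they were Nr1d1 (−0.66 ± 0.14), Per3 (−0.37 ± 0.10) and Nr1d2 (−0.35 ± 0.09). Fitting only the groups compared lost 5, 0 and 3 of these calls, and 3, 2 and 3 were lost without some single array.

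The days were compared within each treatment. In TAC vehicle hearts the levels of 4 of the 7 genes differed between days by limma's moderated F test, which called 5.11% of all genes. These were Hlf (adjusted p = 0.000144), Ciart (adjusted p = 0.00123), Dbp (adjusted p = 0.0346) and Tef (adjusted p = 0.0445). From day 11 to day 28 Ciart rose by 1.48 ± 0.24 (limma adjusted p = 0.00187), Dbp by 0.78 ± 0.21 (adjusted p = 0.049), Hlf by 0.75 ± 0.09 (adjusted p = 0.000505) and Tef by 0.36 ± 0.09 (adjusted p = 0.041). Nfil3 fell by 0.40 ± 0.10 from day 3 to day 28 (adjusted p = 0.0318), though its F test was not called (adjusted p = 0.054; between 0.0325 and 0.0417 under 4 of the alternative settings). The F test calls of Dbp and Tef were lost without most single TAC vehicle arrays (adjusted p up to 0.125 and 0.176). Those arrays were all TAC vehicle arrays but replicate 1 of day 3 for Dbp, and all but replicate 1 of day 3 and replicate 2 of day 11 for Tef. For Dbp the spread in this test is also widened by TAC JQ1 day 3 replicate 1, and the test was not refitted without that array. The Tef call was also lost after quantile normalization (adjusted p = 0.101), with the replicate number as a block (adjusted p = 0.0511) and when only these groups were fitted (adjusted p = 0.151).

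In sham hearts limma's F test called 0 of 7 genes, where it called 0.0652% of all genes, and 4 of 7 had an unadjusted p under 0.05. These were Tef, Hlf, Ciart and Bhlhe41, with limma adjusted p of 0.253, 0.295, 0.439 and 0.566, and the sham mean of each was highest at day 28. Among 11 core clock genes the same F test called 1 in sham hearts, Per2 (limma adjusted p = 0.0313). Its sham means were 8.15, 8.36 and 8.85 at days 3, 11 and 28, so sham levels of clock genes were not all alike between days. In TAC JQ1 hearts 1 of 7 was called, where 8.9% of all genes were. This was Bhlhe41 (adjusted p = 0.011), which fell by 0.60 ± 0.13 from day 11 to day 28 (adjusted p = 0.00792). Its F test call was lost without TAC JQ1 day 28 replicate 1 (adjusted p = 0.0606). Dbp was called without TAC JQ1 day 3 replicate 3 (adjusted p = 0.0382), and Ciart without TAC JQ1 day 28 replicate 1 (adjusted p = 0.0492).

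Whether an effect differed between days was tested as an interaction. For TAC limma called 0 of 7 genes (1.31% of all genes), and 3 of 7 had an unadjusted p under 0.05. These were Hlf, Nfil3 and Ciart, with limma adjusted p of 0.128, 0.13 and 0.151. Nfil3 was called when only these groups were fitted (adjusted p = 0.041). For JQ1 it called 2 of 7 (1.07% of all genes), Hlf (adjusted p = 0.0441) and Bhlhe41 (adjusted p = 0.0492). The JQ1 difference of Hlf changed by −0.61 ± 0.13 from day 11 to day 28 (adjusted p = 0.0283), and that of Bhlhe41 changed by −0.80 ± 0.18 (adjusted p = 0.036). Both calls were lost with the replicate number as a block and when only these groups were fitted. The Hlf call was lost without any 1 of the 6 arrays of day 11, TAC vehicle day 3 replicate 3, or replicate 1 or 2 of either day 28 group (adjusted p up to 0.105). The Bhlhe41 call was lost without any 1 of 12 arrays (adjusted p up to 0.124). These were the TAC vehicle arrays of days 11 and 28, replicates 1 and 2 of TAC JQ1 on those days, TAC vehicle day 3 replicate 1 and TAC JQ1 day 3 replicate 2. Without TAC JQ1 day 3 replicate 1 the interaction of Dbp was called (adjusted p = 0.0197).

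By the order of group means, Hlf ran from 7.96 ± 0.07 (SD, n = 3) in TAC vehicle day 11 and 8.25 ± 0.23 in TAC vehicle day 3 to 9.14 ± 0.07 in sham day 28. Ciart ran from 8.41 ± 0.25 in TAC vehicle day 11 to 10.08 ± 0.51 in TAC JQ1 day 28, a mean whose neighbour in the order, sham day 28 at 10.00 ± 0.13, lay within its SD. Tef ran from 8.87 ± 0.17 in TAC vehicle day 11 to 9.67 ± 0.08 in sham day 28, with TAC JQ1 at days 3 and 11 both at 9.20. Dbp was highest in sham day 28 (10.51 ± 0.05). Its TAC JQ1 day 3 mean was the lowest (9.59 ± 0.76) with replicate 1 and 10.03 without it, when TAC vehicle day 11 (9.68 ± 0.14) and day 3 (9.72 ± 0.22) were the lowest and within 1 SD of each other. Nfil3 was lowest in TAC vehicle day 28 (7.28 ± 0.09) and highest in TAC JQ1 day 28 (7.78 ± 0.16), which the TAC JQ1 groups of days 11 and 3 (7.75 and 7.72) followed within 1 SD. Bhlhe40 was lowest in TAC JQ1 day 11 (8.69 ± 0.21) and highest in TAC vehicle day 28 (9.52 ± 0.09). Bhlhe41 was lowest in TAC JQ1 day 28 (8.09 ± 0.08), with the next group, TAC JQ1 day 3, at 8.50 ± 0.18, and highest in TAC vehicle day 28 (9.0 ± 0.11). Replicates of a group spread more for some genes than for others. The residual SD was 0.32 for Ciart, 0.278 for Dbp (0.121 without TAC JQ1 day 3 replicate 1), 0.232 for Bhlhe40 and 0.165 for Bhlhe41, against 0.109 to 0.129 for Hlf, Tef and Nfil3 and a median of 0.127 over all genes.

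The core clock genes gave a setting for these values, and 11 of 13 listed were measured. After TAC 2 of 11 fell at day 3, Per3 by 0.50 ± 0.10 (limma adjusted p = 0.00352) and Nr1d2 by 0.41 ± 0.09 (adjusted p = 0.00354). At day 11 Per3, Per2, Nr1d2 and Cry2 fell by 0.56, 0.59, 0.41 and 0.64 and Rorb rose by 0.32, so 5 of 11 were called. At day 28 limma called 0 of 11, and 5 had an unadjusted p under 0.05. The share of all genes called after TAC was 7.55%, 15.5% and 15.1% on the 3 days. With JQ1 the repressor genes Cry1 and Cry2 rose at day 3 (0.69 and 0.70) and day 11 (0.51 and 0.51). At day 28 Cry1 rose by 0.47, Per3 fell by 0.32 ± 0.10 (adjusted p = 0.031) and Nr1d1, the gene of the repressor REV-ERB alpha, fell by 1.18 ± 0.14 (adjusted p = 2.13e-06), on the day on which Bhlhe40 and Bhlhe41 fell. So 2, 2 and 3 of 11 were called with JQ1 on the 3 days, against 11.9%, 16% and 19.6% of all genes. The activator genes Arntl and Clock were not called in any of these 6 comparisons. After TAC, the arrays of each lay above all sham arrays at days 11 and 28, where 33.4% and 37.7% of all genes did not overlap. The differences were 0.47 and 0.40 (each ± 0.21) for Arntl and 0.20 and 0.17 (each ± 0.08) for Clock, with limma adjusted p from 0.113 to 0.232. For both genes the arrays overlapped at day 3 after TAC and on all days with JQ1. The calls of Per3 and Nr1d2 at day 3 and of Cry2 with JQ1 at day 3 were lost when only the groups compared were fitted (adjusted p of 0.0724, 0.0817 and 0.125). Without TAC JQ1 day 3 replicate 1 the Cry2 difference at day 3 was 0.45 (limma adjusted p = 0.00523) and that of Cry1 was 0.55 (adjusted p = 0.000308). Rorb was lost without sham day 11 replicate 1 (0.24) or TAC vehicle day 11 replicate 2 (0.23), Cry2 at day 11 with JQ1 without TAC vehicle replicate 1 (0.45), and Per3 at day 28 without any of 4 arrays: TAC vehicle replicate 1 or 3 or TAC JQ1 replicate 2 or 3 (−0.26 to −0.30). Per3 at day 28 was also lost after quantile normalization (adjusted p = 0.0944) and, like Rorb (adjusted p = 0.0887), when only the groups compared were fitted (adjusted p = 0.067 for Per3).

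**Figure D3:**
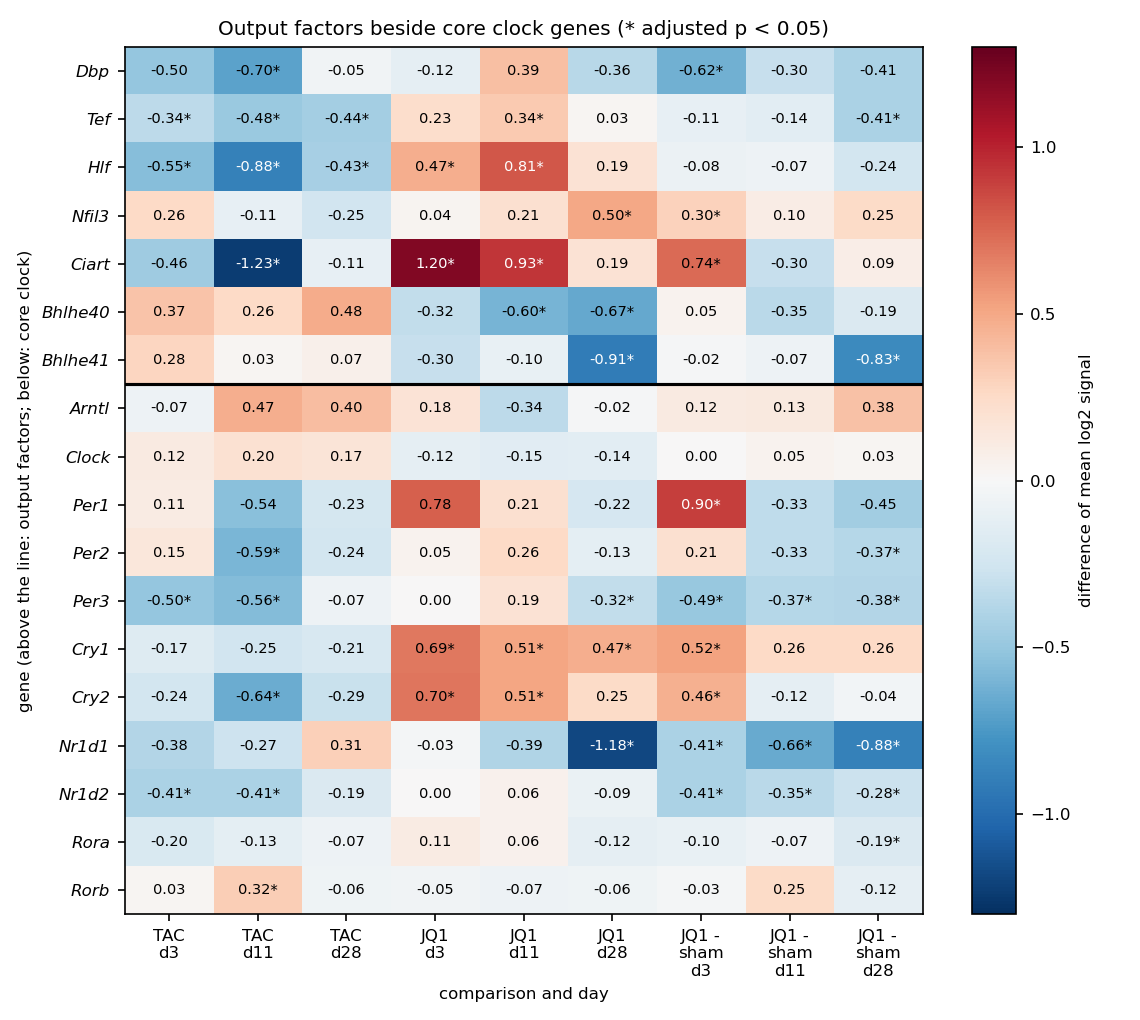
Differences of mean log2 signal in each of 9 comparisons (columns) for the 7 output factors (above the line) and 11 core clock genes (below), with colour and number giving the difference and a star marking a limma adjusted p under 0.05. In the column for TAC at day 11 Dbp, Tef, Hlf, Ciart, Per2, Per3, Cry2 and Nr1d2 are called lower, and in the column for JQ1 at day 28 Bhlhe40, Bhlhe41, Nr1d1 and Per3 are called lower.

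Per3, whose window above holds 2 D-boxes, was 1 of several core clock genes that ran with the PAR bZIP genes. Its levels at day 11 were 9.12, 8.93 and 9.05 in sham, 8.28, 8.70 and 8.42 in TAC vehicle and 8.54, 8.66 and 8.78 in TAC JQ1 hearts, with the TAC vehicle arrays below all sham arrays. Over the 27 arrays the Pearson r with Per3 was 0.79 for Dbp, 0.80 for Tef and 0.73 for Hlf. The arrays share their groups, so r was also taken over deviations from the group means, where it was 0.35, 0.66 and 0.63 over 27 arrays and 0.66, 0.69 and 0.63 over the 26 arrays without TAC JQ1 day 3 replicate 1. Nr1d2, whose window holds no D-box, had r of 0.62, 0.77 and 0.68 with Dbp, Tef and Hlf over the 27 arrays, and 0.70, 0.41 and 0.63 over deviations of the 26 arrays. Over the same deviations Tef had r = 0.67 with Per2 and Hlf had r = 0.68 with Cry2. These correlations are a description, since the arrays share treatments and 1 deposited scaling.

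Among the 7 genes, r over the 27 arrays was 0.88 for Tef and Hlf, 0.82 for Hlf and Ciart, 0.68 for Tef and Ciart, and 0.64 for Dbp and Hlf. Over the deviations within groups the same pairs had r of 0.48, 0.52, 0.36 and 0.51. Bhlhe40 and Bhlhe41 had r = 0.52 over the arrays and 0.23 within groups. Without TAC JQ1 day 3 replicate 1 the value within groups moved from 0.51 to 0.82 for Dbp and Hlf, from 0.08 to 0.56 for Dbp and Tef, and from 0.23 to 0.49 for Bhlhe40 and Bhlhe41.

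Within groups Dbp was opposed to Arntl, the gene of its known activator BMAL1. Over the deviations of the 27 arrays r was −0.85, and −0.74 without TAC JQ1 day 3 replicate 1, in which Dbp lay 0.87 below its group mean. Of all pairs of an output factor and a core clock gene, this r was the largest in size over the 27 arrays. Tef and Hlf were opposed to Arntl too, with r of −0.41 and −0.47, and −0.73 and −0.48 without that array. For the other output factors r with Arntl ran from −0.11 to 0.18 over the 27 arrays. Arntl levels in the TAC JQ1 day 3 group were 8.23, 7.24 and 7.20, where Dbp levels were 8.72, 10.01 and 10.05. The array with the highest Arntl thus had the lowest Dbp. In sham day 3 hearts Arntl levels were 7.82, 7.40 and 7.11 where Dbp levels were 10.03, 10.23 and 10.39, in the same opposed order. Of the 9 groups 5 had the arrays of Dbp and Arntl in fully opposed order, 3 in part, and in TAC vehicle day 28 both ran in the same order. The correlation of Dbp with Cry2 over deviations depended on the array that stood apart, with r = −0.65 with it and 0.39 without it.

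**Figure D4:**
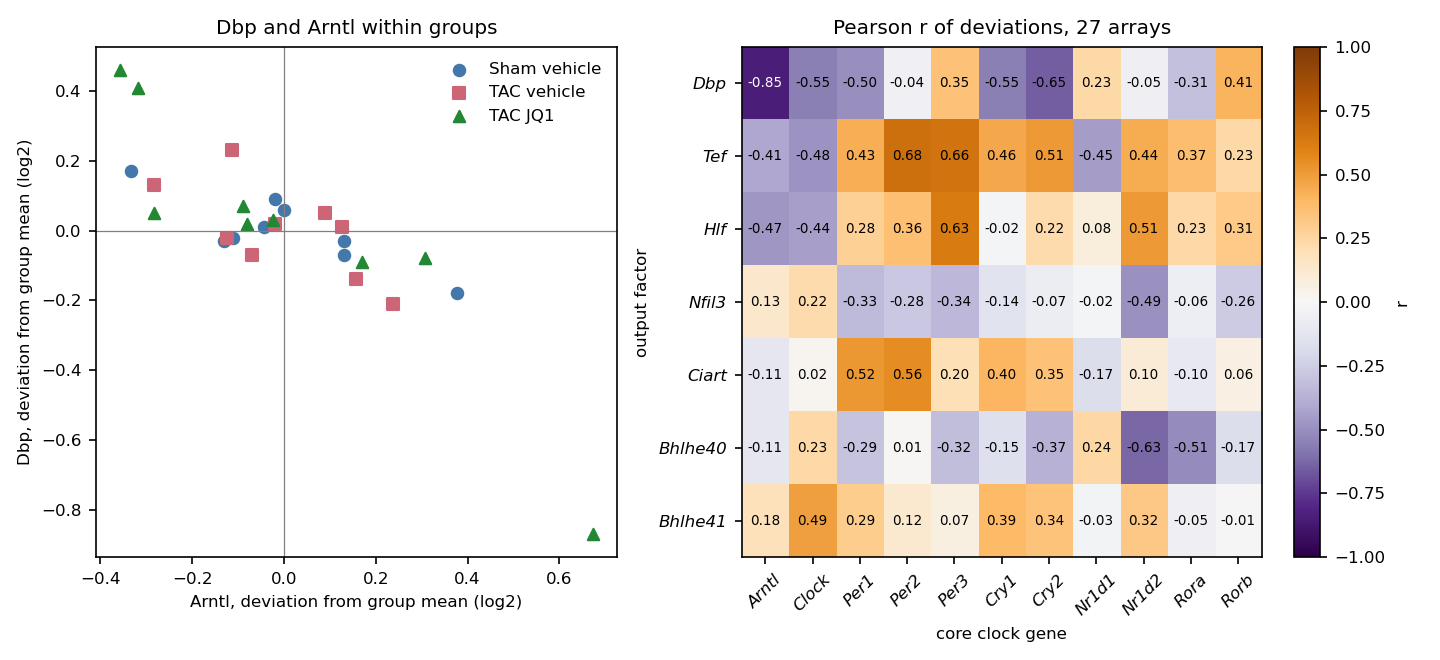
Left, deviation of Dbp from its group mean (vertical axis, log2) against that of Arntl (horizontal axis, log2) in the 27 arrays; right, Pearson r of such deviations for each output factor (rows) and core clock gene (columns). The array at the lower right is TAC JQ1 day 3 replicate 1, and r for Dbp and Arntl is −0.85 with it and −0.74 without it.

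The genes most like each member over the 27 arrays, taken among all genes tested other than the 7, were as follows. For Tef they were Usp2 (r = 0.83), Dgat2 (r = 0.83) and Agtr1a (r = 0.82), and for Dbp they were Jam2 (r = 0.86), Smim20 (r = 0.85) and Fn3k (r = 0.85). Usp2 encodes a deubiquitinase and Dgat2 an enzyme of triglyceride synthesis. For Hlf they were Rab3a (r = 0.87), Gm13375 (r = 0.86) and Selenbp1 (r = 0.86), while Adamts12 had the lowest r of all (−0.93). For Ciart they were Timp3, Eps15l1 and Gstm3 (0.78 to 0.79), and for Nfil3 they were Rplp2, Tmem236 and E130309D02Rik (0.74 to 0.75). Bhlhe40 ran with Tgfb1i1 (r = 0.85), Lrrc25 (r = 0.83) and Parp3 (r = 0.81), and Bhlhe41 with Hip1 (r = 0.89), Mtmr9 (r = 0.87) and Mast4 (r = 0.86). The lowest r was −0.89 for Dbp (Dhx32), −0.85 for Tef (Nmt1), −0.78 for Nfil3 (Polm), −0.77 for Ciart (Fbn2), −0.85 for Bhlhe40 (Nrd1) and −0.88 for Bhlhe41 (Tra2a). These values share the group differences of the 27 arrays.

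Genes known as rhythmic or clock-controlled were counted as a list of 27 measured genes. After TAC 7 fell and 1 rose at day 3, 11 fell and 1 rose at day 11, and 7 fell and 1 rose at day 28. Over all genes, 7.55%, 15.5% and 15.1% were called on these days. Median differences of the list were −0.14, −0.10 and −0.11, where those of all genes were −0.03, 0.01 and −0.05. Fitting only the groups compared lost 7 of the 8 calls at day 3 and none of the 12 and 8 calls on the later days. At day 11 Kcnh2, a potassium channel gene, fell by 0.68 ± 0.08 (limma adjusted p = 5.59e-06), Herpud1 fell by 1.05 ± 0.14 (adjusted p = 1.25e-05) and Klf15, a regulator of cardiac fuel use, fell by 0.73 ± 0.11 (adjusted p = 3.52e-05), while Marcks rose by 0.90 ± 0.13 (adjusted p = 4e-05). With JQ1 5 rose and 4 fell at day 3, 5 rose and 2 fell at day 11, and 3 rose and 4 fell at day 28, with list medians of 0.06, 0.12 and 0.05. Over all genes, 11.9%, 16% and 19.6% were called with JQ1, and the medians were 0.02, −0.05 and 0.06. All 9 calls at day 3 were lost when only the groups compared were fitted, and 6 of the 9 without TAC JQ1 day 3 replicate 1, while none of the 7 and 7 calls at days 11 and 28 was lost when only the groups compared were fitted. Gpcpd1 rose by 0.67 ± 0.09 at day 11 (adjusted p = 3.6e-05), and Lonrf3 rose by 0.83 ± 0.14 at day 28 (adjusted p = 0.000151). In the list of 11 measured clock-linked regulators 0, 3 and 3 were called after TAC, with 1 higher and 2 lower on each later day. With JQ1 1 (higher), 2 (1 higher and 1 lower) and 3 (1 higher and 2 lower) were called. List medians were 0.03, 0.12 and 0.04 after TAC and −0.06, −0.03 and −0.06 with JQ1. Among these genes Usp2 fell after TAC at day 11 (by 0.66 ± 0.10, adjusted p = 8.12e-05) and day 28 (by 0.56 ± 0.10, adjusted p = 0.000475), and rose with JQ1 at day 11 (0.43 ± 0.10, adjusted p = 0.00537). The gene higher after TAC was Nono (0.21 and 0.25), whose calls were lost without some single arrays.

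Relatives of the 7 genes by protein family were counted too. The share of all genes called at days 3, 11 and 28 was 7.55%, 15.5% and 15.1% after TAC, and 11.9%, 16% and 19.6% with JQ1. Of 9 other bZIP genes 1 rose at day 3 (Atf4, 0.30), none was called at day 11 (2 had an unadjusted p under 0.05 in the same limma fit) and 2 rose and 1 fell at day 28 after TAC. With JQ1 1 (Atf4, 0.34), 1 (Ddit3, 0.56) and 4 of them rose on the 3 days. The Atf4 call at day 3 after TAC was lost without sham replicate 2 or 3 or TAC replicate 2 or 3 (limma adjusted p up to 0.24), with centred arrays and when only the groups compared were fitted. With JQ1 it was lost without TAC vehicle replicate 1 or TAC JQ1 replicate 1 (adjusted p = 0.0532 and 0.0844) and when only the groups compared were fitted. The 3 calls after TAC at day 28 (Batf3, Atf4 and Cebpd) were each lost without sham day 28 replicate 1. With JQ1 at day 28, where Nfil3 rose, the 4 were Ddit3 (0.31), Cebpb (0.32), Batf3 (0.29) and Atf4 (0.25). Ddit3 kept its call when any single array was left out. The calls of the other three were each lost without TAC vehicle day 28 replicate 1 or 2, among others (adjusted p up to 0.111 for Cebpb, 0.108 for Batf3 and 0.15 for Atf4). Of 9 other bHLH and Id genes 0, 2 and 1 were called after TAC, with Hes6 (fell by 0.35) and Hey2 (fell by 0.62) at day 11 and Id2 (rose by 0.74) at day 28. With JQ1 0, 3 and 1 were called. At day 28, when Bhlhe40 and Bhlhe41 fell, the call was Id4, which rose by 0.26 ± 0.09 (limma adjusted p = 0.042), a call that was lost without TAC vehicle day 28 replicate 2 (0.21) or TAC JQ1 day 28 replicate 1 (0.20), among others.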

How the data were processed

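RNA from 10 to 20 mg of heart tissue was made into cDNA with the Ambion WT Expression Kit and labelled for Affymetrix arrays, per the labels' protocols. The authors deposited log2 signals for 34760 probe sets of 27 arrays, from 1.67 to 14.2 with none missing. Their normalization was not given in the sources used here. Per the submitters' processing notes limma was used, with no version given. Of the probe sets 22961 named a gene and 21640 a single gene, in the platform annotation supplied with the data. For 954 genes with several probe sets the one with the highest mean was kept, which left 19937 genes.

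In R 4.3.3, limma 3.58.1 (lmFit, eBayes) fitted a mean for each of the 9 groups to the values as deposited, with 18 residual and 4.9 prior degrees of freedom. Moderated t tests compared groups within a day, and moderated F tests compared levels or effects between days. Benjamini-Hochberg adjustment ran over all genes of a comparison, with calls under 0.05, and intervals are at 95%. The number of arrays, 3 a group, limits the precision. The fit was tested on simulated data with planted changes. Members and lists were chosen with earlier results of these data known. Named are the members, all core clock genes, up to 4 genes of each other list by smallest p, and for each member the 3 most like genes by r and the 1 least like. Alternatives were quantile normalization again, arrays centred on their median, the dimmest 33.3% of genes left out, the mean of probe sets, other eBayes options, a fit of the compared groups alone, a replicate block and leaving out each array. Figures were drawn with matplotlib 3.10.9.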

Additional observations from a re-analysis of the deposited data

Results flagged for a closer look

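Both results came from the test of whether the JQ1 difference, TAC JQ1 minus TAC vehicle, differed between days 3, 11 and 28. For Hlf the adjusted p of limma's moderated F test was 0.0441, with JQ1 differences of 0.47, 0.81 and 0.19 (each ± 0.09). For Bhlhe41 the adjusted p of limma's moderated F test was 0.0492, with JQ1 differences of −0.30, −0.10 and −0.91 (each ± 0.13). Groups of 3 arrays are too small for the test of a single array far from the others, which was not run.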

How the results depend on the processing

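Of 98 member results, the same call and direction were kept in 98 with probe sets of a gene averaged, 96 with arrays centred on their median, 96 with the trend and robust options of eBayes, 95 with quantile normalization again, 95 without the dimmest 33.3% of genes, 94 with the replicate block and 80 when only the groups compared were fitted. Leaving out 1 array kept 732 of 819. Replicate numbers are not stated to pair the samples, and same-numbered samples did not deviate together in every pair (r from −0.46 to 0.50, over 0.1 in 7 of 27), so the numbers were not taken as pairs, and the block left 0 of 7 calls for the JQ1 effect by day where the fit without it had 2. Quantile normalization again left 1 of these. Fitting only the groups compared called 0 of 7 genes for TAC at day 3, 1 for JQ1 at day 3, 0 for TAC JQ1 versus sham at day 3 and 1 at day 11, 0 for the TAC JQ1 level between days, 1 for the TAC effect by day and 0 for the JQ1 effect by day. Counts that moved by a smaller ratio are not listed, here or for single arrays. This fit ended 11 calls of the 7 genes and added 7. Those added include Bhlhe40 for TAC and Dbp for JQ1 and for TAC JQ1 versus sham, all at day 28. Without single arrays the count ran from 1 to 2 for TAC at day 3, 2 to 4 for JQ1 at day 11, 0 to 2 for TAC JQ1 versus sham at day 3, 2 to 4 for the TAC vehicle level between days, 1 to 2 for the TAC JQ1 level between days and 0 to 3 for the JQ1 effect by day. The cause was not tested.

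Directions that turned were of values not called. Centring the arrays gave −0.01 for Tef with JQ1 at day 28. Without single arrays the JQ1 difference ran from −0.35 to 0.31 for Dbp at day 3, −0.03 to 0.11 for Nfil3 at day 3, −0.01 to 0.07 for Tef at day 28 and −0.07 to 0.43 for Ciart at day 28. The TAC difference of Bhlhe41 at day 11 ran from −0.05 to 0.10. For TAC JQ1 versus sham the range at day 3 was −0.13 to 0 for Hlf, −0.09 to 0.25 for Bhlhe40 and −0.14 to 0.05 for Bhlhe41. At day 11 it was −0.03 to 0.19 for Nfil3 and −0.17 to 0 for Bhlhe41, and at day 28 it was −0.18 to 0.33 for Ciart. Centring moved the split of all called genes at day 28, from 1427 higher and 2480 lower to 1005 and 2796 for JQ1, and from 1468 and 2508 to 1047 and 2900 for TAC JQ1 versus sham. The median of all genes moved by less than 0.1 in these. The number of arrays, 3 a group, limits what can be called, and signal over background is not given in the deposited values.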
